A study of Mus musculus with 8 samples.

Results

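The amyloid, tau and lipoprotein genes are 10 genes, App, Bace1, Psen2, Ncstn, Adam10, Mapt, Cdk5, Gsk3b, Apoe and Clu, chosen by name from the genes tied to Alzheimer's disease. Probes were named by their RefSeq transcript. The 10 genes had 14 probes among the 55681 non-control probes of the array, and all 10 genes and all 14 probes passed the filter on dim signal that left 16622 of 21368 named genes. The study measured hippocampal RNA of 8 female mice on 1-colour Agilent expression arrays, 1 array per mouse. The Hydroxyurea group held 4 mice that drank hydroxyurea with their water (45 mg/kg/day) over 10 weeks, from an age of 9 to 14 weeks on. Hydroxyurea 1 and 2 were 24 weeks old at the end and Hydroxyurea 3 and 4 were 19 weeks old. The Control group held 4 untreated mice of 19 weeks. All 8 were nontransgenic littermates from the APPswe695/PSEN1dE9 line, kept on a C57BL/6J background. None carried the transgenes of that line, so the App signal here comes from the mouse gene. Hydroxyurea inhibits ribonucleotide reductase, and the study asked whether it protects hippocampal neurons and memory.

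Amyloid-beta is cut from the membrane protein App. Bace1, the beta-secretase, makes the first cut, and the gamma-secretase complex, with a presenilin such as Psen2 as its catalytic subunit and Ncstn, nicastrin, as a partner subunit, makes the second. Adam10, the main alpha-secretase of neurons, cuts within the amyloid-beta sequence and so takes App out of that route. Mapt encodes tau, the microtubule protein of axons that aggregates in tangles, and Cdk5 and Gsk3b encode kinases that phosphorylate it. Apoe and Clu encode the lipid-carrying apolipoproteins E and J, which astrocytes secrete in the brain and which bind amyloid-beta.

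Values are scaled log2 signals, the log2 of the processed signal minus the log2 of the 75th percentile of that array, so 0 is the 75th percentile and the values of different probes are not set against each other. The 75th percentile of the signal ran from 1052 (Hydroxyurea 2, the dimmest array) to 2162 among treated mice, and from 1677 to 2417 among untreated mice. The median coefficient of variation between replicate spots was 3.78% to 4.44% for Hydroxyurea arrays, and 3.72% to 4.07% for Control arrays apart from Control 1, the noisiest, at 12.9%. All 8 arrays lay on 1 slide with each group in a row of its own, so position and group cannot be told apart. A list of 10 hippocampal subfield markers, Prox1 and Wfs1 among them, was well above background on all 8 arrays for 10 of 10 genes. In these whole-tissue samples fewer cells of a type and less RNA per cell cannot be told apart.

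RefSeq promoter windows (GRCm38.p6, 250 bases before to 50 after a transcription start) were at hand for 6 of the 10 genes, App, Psen2, Ncstn, Adam10, Gsk3b and Apoe. Those of App, the precursor itself, and of Apoe, the main apolipoprotein of the brain, are shown to contrast their base composition. The App window lies at chr16:85173658-85173957 on the minus strand, and the most upstream of 3 Apoe windows at chr7:19699139-19699438 on the minus strand. Capitals mark the GC box GGGCGG, searched on both strands.
App: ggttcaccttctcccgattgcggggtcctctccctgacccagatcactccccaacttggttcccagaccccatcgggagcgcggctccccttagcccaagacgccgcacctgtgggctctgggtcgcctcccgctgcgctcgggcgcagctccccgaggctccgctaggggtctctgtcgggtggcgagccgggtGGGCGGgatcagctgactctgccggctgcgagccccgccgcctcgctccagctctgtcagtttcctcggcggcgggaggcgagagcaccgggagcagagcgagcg
Apoe: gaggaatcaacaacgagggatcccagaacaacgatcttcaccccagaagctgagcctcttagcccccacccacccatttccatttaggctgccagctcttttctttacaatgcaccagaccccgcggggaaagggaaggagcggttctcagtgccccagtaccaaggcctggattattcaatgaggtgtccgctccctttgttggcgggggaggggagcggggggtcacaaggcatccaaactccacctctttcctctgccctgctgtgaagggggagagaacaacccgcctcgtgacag
The App window was 71.0% G or C and held 1 GC box, and the Apoe window was 57.7% G or C and held 0. The median over 32817 windows was 52.7%, and 35.6% of windows held the motif. Adam10 had 3 copies, Psen2 had 4 in 1 of its 2 windows, and Ncstn and Gsk3b had 0. The TATA box TATAAA, in 13.6% of all windows, was found in neither window shown, once in the Gsk3b window and at 2 positions in another Apoe window. These matches describe the DNA, and the arrays measured RNA.

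None of the 10 genes passed the threshold between Hydroxyurea and Control mice. In the limma fit 0 of 16622 genes did (0%), at a threshold on the adjusted p of 0.05. The unadjusted p was under 0.05 for 1641 genes, 9.87% of those tested, and for 1 of the 10 members, Cdk5, with lower values in treated mice. Log2 fold changes were above 0 for 6 members and below 0 for 4, with a median of 0.01, against -0.0038 over all genes tested. The 95% interval excluded a 1.5-fold change for 9 members and a 1.2-fold change for 5. Over all genes tested those shares were 77.7% and 26.7%.

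**Figure D1:**
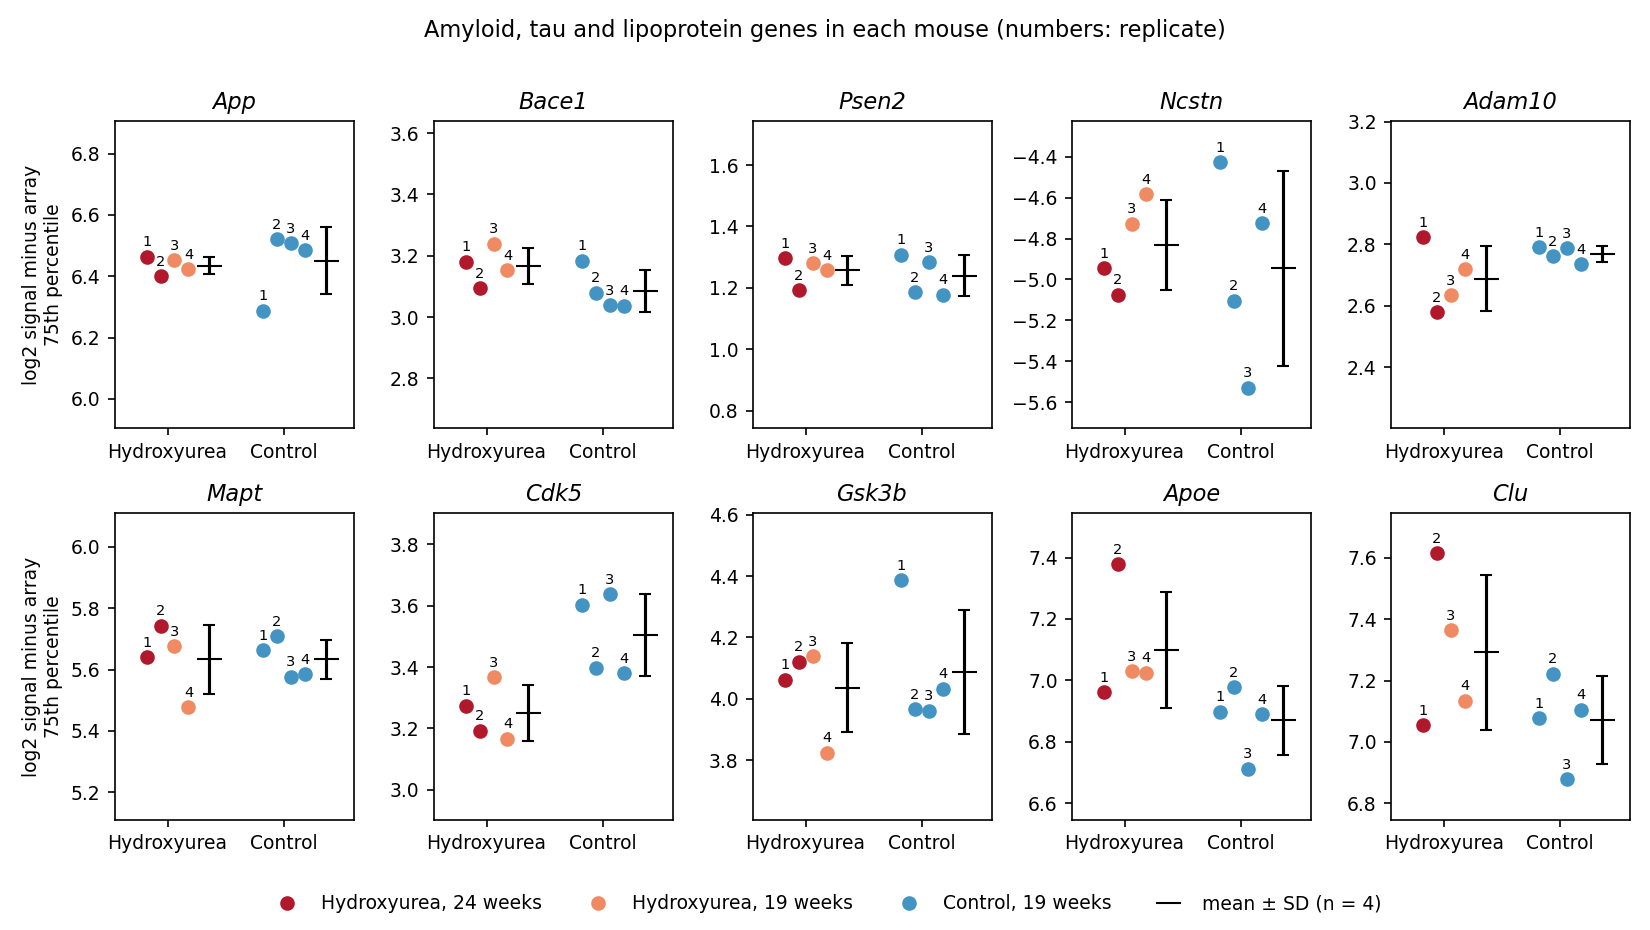
Scaled log2 signal (y axis) of the brightest probe of each gene in each mouse, with the replicate number above each point and bars for mean ± SD (n = 4 per group). Each panel spans 1 log2 unit except Ncstn, which spans 1.5. The 4 Hydroxyurea points of Cdk5 lie below the 4 Control points, and the groups overlap in the other 9 panels.

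App had scaled log2 signals of 6.46, 6.40, 6.45 and 6.42 in Hydroxyurea 1 to 4, and 6.29, 6.52, 6.51 and 6.49 in Control 1 to 4. The treated mice lay within the range of the untreated ones, and Control 1 was the lowest of the 8. The mean was 6.43 ± 0.03 in Hydroxyurea mice and 6.45 ± 0.11 in Control mice (SD, n = 4 each). This gave a log2 fold change of -0.02 ± 0.07 (SE; 95% interval -0.17 to 0.14; limma adjusted p = 0.949). The sign was the same with quantile scaling (-0.08), median centring (-0.10) and normexp (-0.10), and turned without Control 2 (0.0075) or Control 3 (0.0029). In the authors' deposited z scores App was higher in treated mice by 0.0525 in z units, with an unadjusted p under 0.05 (limma adjusted p = 0.373). The App probe was spotted 2 times per array, and the SD over those spots was 0.0043 to 0.069.

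Bace1, the beta-secretase, had 3.18, 3.09, 3.24 and 3.15 in Hydroxyurea 1 to 4, and 3.18, 3.08, 3.04 and 3.04 in Control 1 to 4. The treated values lay within the untreated range except for Hydroxyurea 3, the highest of the 8, and all 4 lay above Control 2, 3 and 4 and, but for Hydroxyurea 3, below Control 1. Bace1 had a log2 fold change of 0.08 ± 0.06 (interval -0.06 to 0.22; limma adjusted p = 0.667). It was 0.11 ± 0.05 without Control 1, and 0.00022 with median centring. With Control 1 and Hydroxyurea 2 both left out, Bace1 had 0.14 ± 0.05 (limma adjusted p = 0.344) and was the 1 member with an unadjusted p under 0.05.

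Psen2, a presenilin, varied least over the mice. It had 1.30, 1.19, 1.28 and 1.26 in Hydroxyurea 1 to 4, and 1.31, 1.19, 1.28 and 1.18 in Control 1 to 4. Both groups covered nearly the same span. The pooled SD within groups was 0.057, a spread exceeded by all but 5.10% of genes tested, against a median of 0.153. Its log2 fold change was 0.02 ± 0.06 (interval -0.12 to 0.15; limma adjusted p = 0.934), and it turned to -0.06 with median centring and to -0.01 with normexp.

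Ncstn, nicastrin, was dim. It had -4.95, -5.07, -4.73 and -4.58 in Hydroxyurea 1 to 4, and -4.43, -5.10, -5.53 and -4.73 in Control 1 to 4. It was well above background on 3 Hydroxyurea and 4 Control arrays. The lowest scaled log2 signal well above background was -6.18 to -5.04 on Hydroxyurea arrays and -6.59 to -5.77 on Control arrays. The log2 fold change was 0.11 ± 0.23 (interval -0.42 to 0.65; limma adjusted p = 0.886), and -0.08 without Control 3. Its interval was the only one among the members that included a 1.5-fold change.

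Adam10, the alpha-secretase, had 2.82, 2.58, 2.63 and 2.72 in Hydroxyurea 1 to 4, and 2.79, 2.76, 2.79 and 2.74 in Control 1 to 4. Of the treated mice 3 lay below all untreated ones, and Hydroxyurea 1 was the highest of the 8. The SD was 0.11 in Hydroxyurea and 0.026 in Control mice. Adam10 had a log2 fold change of -0.08 ± 0.07 (interval -0.23 to 0.07; limma adjusted p = 0.703). It was -0.05 with quantile scaling, -0.16 with median centring and -0.12 with normexp.

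Cdk5, the neuronal kinase that p35 activates, was the member whose groups did not overlap, which held for 7.49% of genes tested, 5.11% with treated mice lower and 2.38% with treated mice higher. It had 3.27, 3.19, 3.37 and 3.17 in Hydroxyurea 1 to 4, and 3.60, 3.40, 3.64 and 3.38 in Control 1 to 4. Control 2 and 4 lay close to the treated mice and Control 1 and 3 well above them, and the gap between Hydroxyurea 3 and Control 4 was 0.01. The mean was 3.25 ± 0.09 in Hydroxyurea mice and 3.50 ± 0.13 in Control mice (SD, n = 4 each). The log2 fold change was -0.25 ± 0.08 (interval -0.45 to -0.06), a level of 0.838 of Control.

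The limma p of Cdk5 was 0.017 before adjustment and 0.476 after adjustment over all genes, and the share of all genes with an unadjusted p under 0.05 and lower values was 6.35%. The exact two-sided permutation p was 0.0286, the smallest that 4 against 4 mice can give. Leaving out each array in turn gave log2 fold changes from -0.30 to -0.21, with an unadjusted p under 0.05 in each. The value was -0.23 with quantile scaling and -0.34 with median centring. It was -0.19 with normexp, where the groups overlapped, -0.24 among 19-week mice and with age as a covariate, -0.14 with array weights, and -0.20 without both Control 1 and Hydroxyurea 2. In the authors' deposited z scores it was -0.04 in z units. In those 6 fits the unadjusted p was over 0.05, and the limma adjusted p was 0.316 to 0.731. The gene had 1 probe, so no second probe could be compared.

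Gsk3b, glycogen synthase kinase 3 beta, had 4.06, 4.12, 4.14 and 3.82 in Hydroxyurea 1 to 4, and 4.39, 3.97, 3.96 and 4.03 in Control 1 to 4. Control 1 was the highest and Hydroxyurea 4 the lowest of the 8, with the other 6 mice between 3.96 and 4.14. The log2 fold change was -0.05 ± 0.12 (interval -0.32 to 0.22; limma adjusted p = 0.904). It turned to 0.05 without Control 1 and to 0.04 with normexp. Of its other probes, A_51_P514412 had 0.10 ± 0.21 and A_66_P104190 had -0.08 ± 0.08, so the probes differed in sign within their errors.

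Mapt, the tau gene, had 5.64, 5.74, 5.68 and 5.48 in Hydroxyurea 1 to 4 on its brightest probe (A_55_P2100149), and 5.66, 5.71, 5.58 and 5.59 in Control 1 to 4. The treated mice held both the highest and the lowest value. Treated over untreated mice gave a log2 fold change of 0.00041 ± 0.07 (interval -0.17 to 0.17; limma adjusted p = 0.999), and -0.03 with quantile scaling and -0.08 with median centring. The probe A_55_P1954486 had 0.01 ± 0.06. The remaining probe, A_55_P2100155, read lower in treated mice, with 4.39, 4.34, 4.59 and 4.46 in Hydroxyurea 1 to 4 and 4.46, 4.60, 4.67 and 4.64 in Control 1 to 4. Its log2 fold change was -0.15 ± 0.08 in the fit of every probe (limma adjusted p = 0.640), with overlapping groups. A_55_P2100149 and A_55_P2100155 are annotated to the same RefSeq transcript, and which tau transcripts each probe reports was not tested.

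**Figure D2:**
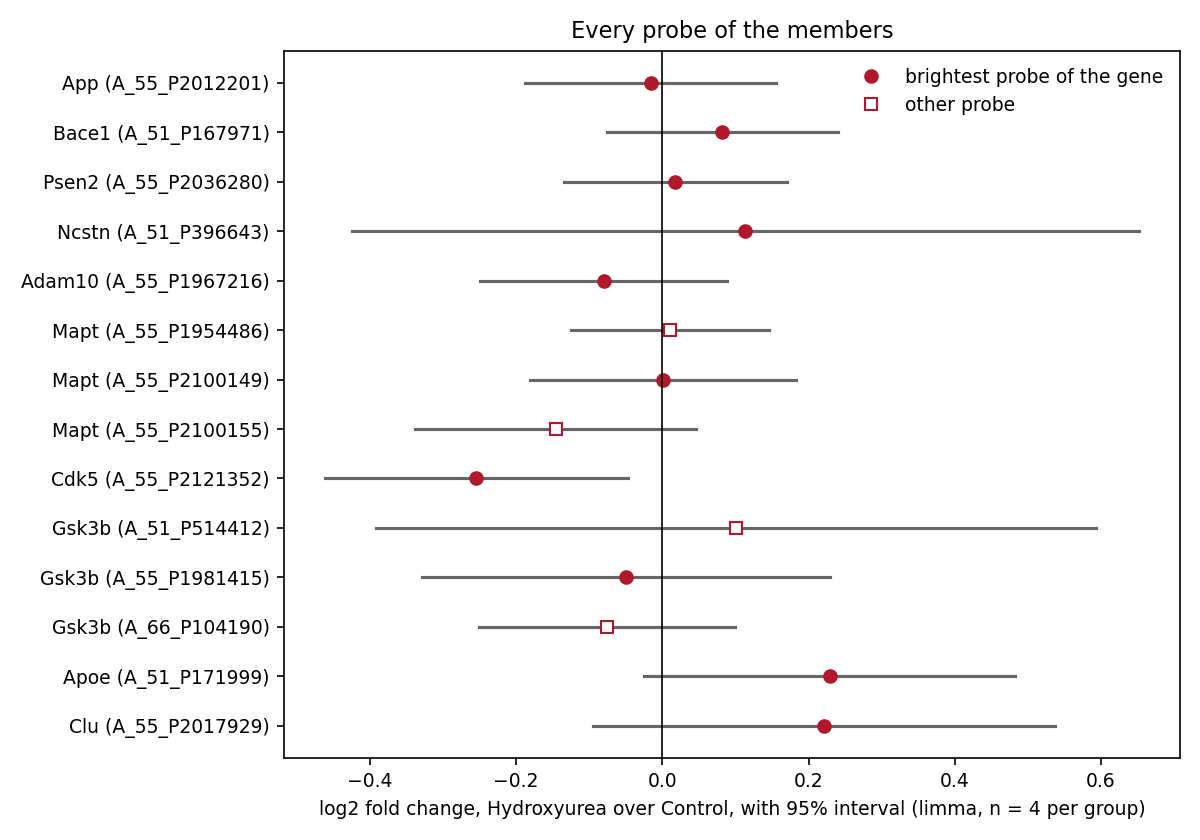
Log2 fold change of Hydroxyurea over Control (x axis) with its 95% interval for each of the 14 probes of the 10 genes, from the limma fit of every probe. Only the interval of the Cdk5 probe leaves out 0, and the Ncstn probe and the Gsk3b probe A_51_P514412 have the widest intervals.

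In that fit 1 of the 14 probes, that of Cdk5, had an unadjusted p under 0.05, against 8.5% of 36753 probes tested. None passed after adjustment, as for all probes tested (0%).

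Apoe, apolipoprotein E, had 6.96, 7.38, 7.03 and 7.02 in Hydroxyurea 1 to 4, and 6.90, 6.98, 6.71 and 6.89 in Control 1 to 4. Hydroxyurea 2 stood above all other mice, and the treated mice were higher except that Hydroxyurea 1 lay just below Control 2. The mean was 7.10 ± 0.19 in Hydroxyurea mice and 6.87 ± 0.11 in Control mice (SD, n = 4 each). The log2 fold change was 0.23 ± 0.11 (interval -0.02 to 0.47; limma adjusted p = 0.521), a level of 1.17 times Control. The exact two-sided permutation p was 0.0571.

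The Apoe probe was spotted 10 times per array, and 1 spot of Control 1 was left out as an outlier. The SD over those spots was 0.037 to 0.056 on Hydroxyurea arrays, lowest on Hydroxyurea 2, and 0.051 to 0.061 on Control 2, 3 and 4. On Control 1 it was 0.11. The lowest Apoe spot on Hydroxyurea 2, 7.31, lay above the highest spot of any other array, 7.10, on this scale. All spots of an array share 1 scaling constant, and Hydroxyurea 2 was the dimmest array. Before scaling its Apoe spots were the lowest, with signals of 167087 to 181604, against 210574 to 296528 on the other Hydroxyurea arrays and 193201 to 268042 on Control arrays. Without it the log2 fold change of Apoe was 0.14 ± 0.08. With quantile scaling it was 0.14 ± 0.05 (limma adjusted p = 0.466), with an unadjusted p under 0.05. There the treated mice read 17.84, 17.83, 17.81 and 17.92 and the untreated mice 17.75, 17.70, 17.69 and 17.72 in log2 signal, so the groups separated and Hydroxyurea 2 no longer stood out. With median centring it was 0.15 ± 0.09, with overlapping groups.

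Clu, clusterin or apolipoprotein J, had 7.05, 7.61, 7.36 and 7.13 in Hydroxyurea 1 to 4, and 7.08, 7.22, 6.88 and 7.10 in Control 1 to 4. Hydroxyurea 2 and 3 lay above all untreated mice, and Hydroxyurea 1 and 4 lay within their range. Clu had a log2 fold change of 0.22 ± 0.13 (interval -0.09 to 0.53; limma adjusted p = 0.594). It was 0.11 ± 0.11 without Hydroxyurea 2, 0.09 with quantile scaling, and 0.14 with median centring and with normexp. Clu followed Apoe from mouse to mouse. Hydroxyurea 2 and 3 were the highest and Control 3 the lowest for both genes, and their Pearson's r over the 8 mice was 0.94 (Spearman's rho 0.88), the highest of the 45 pairs of members. This is a description, since the 2 genes share each array's scaling, and r was 0.65 without Hydroxyurea 2 and Control 3. The lowest r was that of Adam10 and Clu (-0.90), which was -0.43 without Hydroxyurea 2 and 3.

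**Figure D3:**
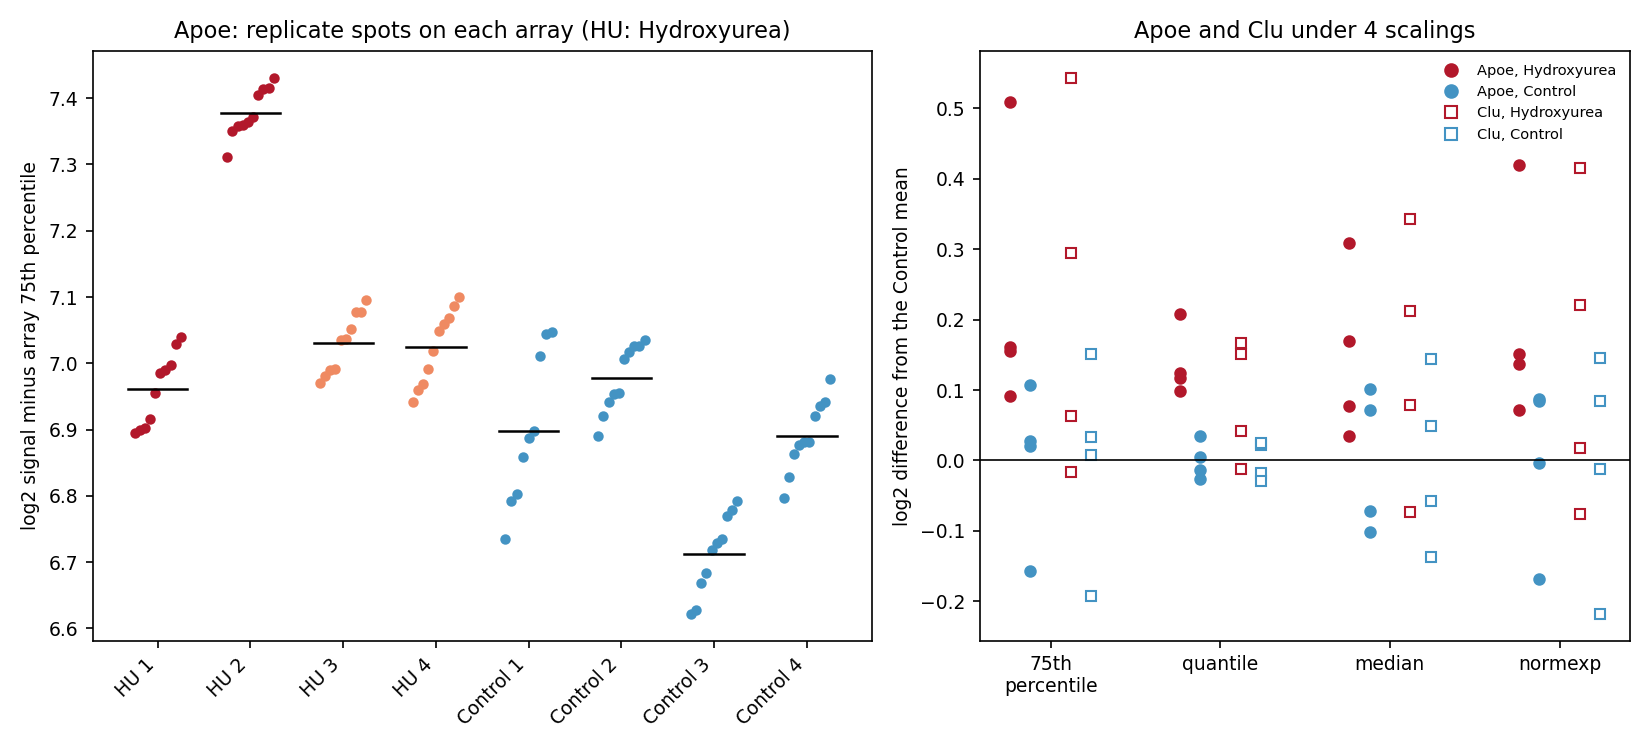
Left, scaled log2 signal (y axis) of the Apoe spots kept on each array, with a line at their mean (dark red, Hydroxyurea at 24 weeks, orange, Hydroxyurea at 19 weeks, blue, Control). Right, log2 difference of each mouse from the Control mean (y axis) for Apoe and Clu under 4 scalings. The spots of Hydroxyurea 2 lie above those of all other arrays, and with quantile scaling the 4 treated Apoe values lie above the 4 untreated ones.

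The summed level of 10 astrocyte markers, as signal over the 75th percentile, reached 344.8 for Hydroxyurea 2. It was 256.8 to 274.4 in the other treated mice and 250.2 to 291.1 in Control mice. Bright markers weigh most in such sums, here Aldoc, with a scaled log2 signal of 7.87 on Hydroxyurea 2. Aldoc had 7.25 to 7.40 on the other Hydroxyurea arrays and 7.11 to 7.51 on Control arrays. With equal weights, the mean log2 deviation of the 10 markers from their means over all mice was 0.069 on Hydroxyurea 2. It was -0.047 to 0.025 on the other Hydroxyurea arrays and -0.060 to 0.025 on Control arrays. All 10 astrocyte markers were well above background on all 8 arrays, and 4 had means above and 6 below those of Control mice. Their log2 fold changes ran from -0.26 ± 0.16 (Gjb6) to 0.24 ± 0.14 (Gfap). The summed level of 10 microglia markers was also highest on Hydroxyurea 2, at 163.6. It was 123.3 to 132.3 on the other Hydroxyurea arrays and 120.2 to 134.1 on Control arrays. Itgam weighed most in these sums, with a scaled log2 signal of 6.47 on Hydroxyurea 2. Itgam had 5.71 to 5.97 on the other Hydroxyurea arrays and 5.47 to 5.94 on Control arrays. With equal weights, Itgam included, the mean log2 deviation of the microglia markers was 0.129 on Hydroxyurea 2. That mean was -0.131 to 0.064 on the other Hydroxyurea arrays and -0.083 to 0.082 on Control arrays. Hydroxyurea 2 also had the highest sum for 10 neuron markers, 592.7. It was 475.2 to 544.2 on the other Hydroxyurea arrays and 447.8 to 535.9 on Control arrays. With equal weights the mean log2 deviation of the neuron markers was highest on Hydroxyurea 3 (0.097). Hydroxyurea 2 (0.093) and Control 1 (0.075) came next. Oligodendrocyte markers ran the other way, with the lowest sum of the 8 arrays on Hydroxyurea 2, 169.8, against 218.3 to 228.1 on the other Hydroxyurea arrays and 182.4 to 219.6 on Control arrays. Their part in the Apoe and Clu values was not tested. Choroid plexus markers, which ranged from 42.7 to 346.1 in Hydroxyurea mice and from 30.6 to 160.0 in Control mice, were highest in Hydroxyurea 4 (346.1) and next in Hydroxyurea 2 (217.1), and their part was not tested either. All 10 choroid plexus markers had higher means in treated mice (median log2 fold change 1.28), with 0 of 10 at an unadjusted p under 0.05. All 10 blood and leukocyte markers had higher means too (median 0.34). An unadjusted p under 0.05 was found for 4 of 10, against 3.53% of all genes tested that were higher at that p. Only 8 of these 10 were well above background on all 8 arrays. Ccr7, 1 of the 4, was so on 2 Hydroxyurea and 2 Control arrays. The sum of the 10 was 67.3 to 137.7 in Hydroxyurea mice and 75.7 to 104.0 in Control mice.

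Age was compared within the Hydroxyurea group, 24 against 19 weeks, in a limma fit of 3 group means. None of the 10 members passed, as for 0 of 16622 genes (0%), and none had an unadjusted p under 0.05, against 2.7% of genes tested (1.26% higher and 1.44% lower at 24 weeks). The log2 difference, 24 minus 19 weeks, was 0.14 ± 0.15 for Apoe, 0.08 ± 0.20 for Clu and -0.03 ± 0.13 for Cdk5 (SE, n = 2 per age). That of Ncstn was -0.35 ± 0.33, and those of the other members lay between -0.06 and 0.11. All treated mice drank hydroxyurea over 10 weeks, so age and the age at which treatment began cannot be told apart. All Control mice were 19 weeks old, so a difference with age in untreated mice could not be measured. Among 19-week mice alone (2 treated, 4 untreated) the treatment value was 0.16 ± 0.09 for Apoe and 0.18 ± 0.12 for Clu.

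Genes around App were taken from a list of secretase subunits and App relatives, of which 8 of 10 were tested. With an unadjusted p under 0.05, 1 was higher and 1 lower in treated mice (background 3.53% and 6.35%), and the median log2 fold change was -0.01. Groups did not overlap for 1 higher and 1 lower gene of this list, against 2.38% and 5.11% of all genes tested. Aplp1, an App paralog, had 6.37, 6.54, 6.42 and 6.37 in Hydroxyurea 1 to 4, and 6.34, 6.27, 6.02 and 6.22 in Control 1 to 4, so the groups did not overlap. Its log2 fold change was 0.21 ± 0.08 (limma adjusted p = 0.494). Aplp2, the other paralog, had 0.16 ± 0.08 with overlapping groups. Aph1b, a scaffold subunit of gamma-secretase, had 1.75, 1.57, 1.71 and 1.81 in Hydroxyurea 1 to 4, and 1.91, 1.82, 1.995 and 1.89 in Control 1 to 4, also without overlap. Its log2 fold change was -0.19 ± 0.07 (limma adjusted p = 0.484).

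Of 20 genes of amyloid sorting, binding and clearance, all tested, 0 were higher and 2 lower at an unadjusted p under 0.05 (background 3.53% and 6.35%). The median log2 fold change was 0.02. Groups did not overlap for 0 higher and 2 lower genes, against 2.38% and 5.11% of all genes tested. Sort1, the sorting receptor sortilin, had 4.27, 4.30, 4.36 and 4.27 in Hydroxyurea 1 to 4, and 4.38, 4.54, 4.46 and 4.56 in Control 1 to 4. The highest treated value lay just below the lowest untreated one. Its log2 fold change was -0.19 ± 0.06 (limma adjusted p = 0.476). Gga3, an adaptor that carries Bace1 to lysosomes, had -0.16 ± 0.06, with groups that did not overlap (limma adjusted p = 0.492). Rtn3, a reticulon that binds and inhibits Bace1, had 0.26 ± 0.12 with overlapping groups (limma adjusted p = 0.519).

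Of 25 genes of tau kinases, phosphatases and microtubule proteins, all tested, 0 were higher and 0 lower at an unadjusted p under 0.05 (background 3.53% and 6.35%). The median log2 fold change was 0.0072. The 3 with the smallest p were Mark1 (-0.18 ± 0.08) and Mark3 (-0.13 ± 0.07), which encode microtubule affinity-regulating kinases, and Csnk1d (-0.11 ± 0.06), casein kinase 1 delta. Their limma adjusted p was 0.521 to 0.566, and their groups overlapped.

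Of 24 genes of lipoproteins and brain cholesterol, all tested, 2 were higher and 2 lower at an unadjusted p under 0.05 (background 3.53% and 6.35%). The median log2 fold change was 0.02. Groups did not overlap for 2 higher and 1 lower gene, against 2.38% and 5.11% of all genes tested. Pltp, the phospholipid transfer protein that remodels lipoproteins, had 0.98, 1.75, 1.10 and 1.64 in Hydroxyurea 1 to 4, and 0.80, 0.96, 0.49 and 0.91 in Control 1 to 4. The lowest treated mouse lay just above the highest untreated one, and Hydroxyurea 2 and 4 lay well above. Its log2 fold change was 0.58 ± 0.19 (limma adjusted p = 0.476). The choroid plexus sums were 42.7, 217.1, 119.1 and 346.1 in Hydroxyurea 1 to 4, and 30.6, 51.6, 160.0 and 85.6 in Control 1 to 4, and the part of that tissue in the Pltp value was not tested.

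Srebf2, the transcription factor of sterol synthesis genes, had 0.20 ± 0.07 and Vldlr, a receptor for Apoe and reelin, had -0.16 ± 0.05. The groups of both did not overlap (limma adjusted p = 0.484 for Srebf2 and 0.477 for Vldlr). Lrp8, the other reelin and Apoe receptor, named after its values were seen because it completes the count, had -0.28 ± 0.12 with overlapping groups (limma adjusted p = 0.506).

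**Figure D4:**
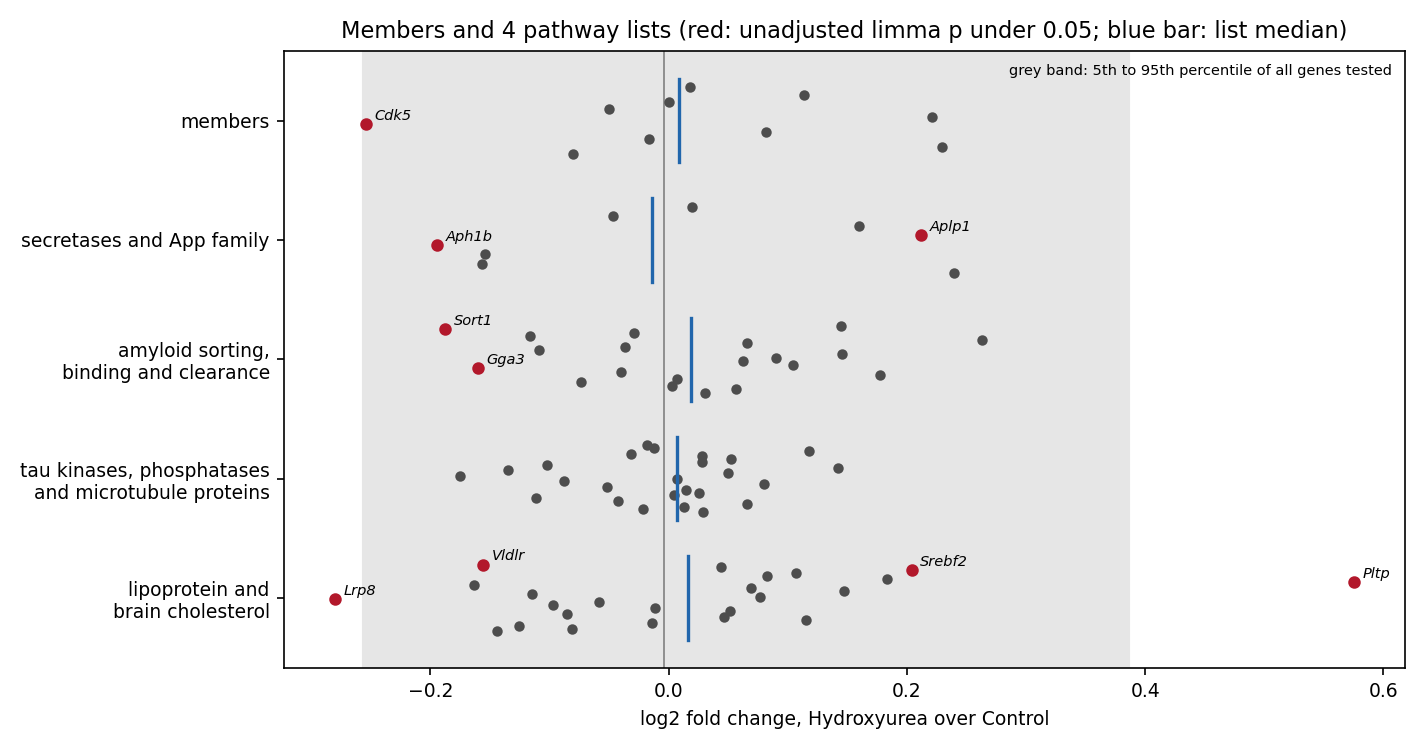
Log2 fold change of Hydroxyurea over Control (x axis) for the 10 members and the tested genes of 4 pathway lists, 1 point per gene, with the list median as a bar and the 5th to 95th percentile of all genes tested as a grey band. Named points have an unadjusted limma p under 0.05, and Pltp lies farthest outside the band.

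For each member the other tested gene with the most similar values over the 8 mice was found by Pearson's r. These were Pdhx for App (0.99), C030006K11Rik for Bace1 (0.97), Gng4 for Psen2 (0.98), P4hb for Ncstn (0.97) and Sf3b6 for Adam10 (0.98). They were Rtl6 for Mapt (0.98), Spns1 for Cdk5 (0.98), Kif3b for Gsk3b (0.98), Ncoa5 for Apoe (0.99) and Elob for Clu (0.99). Each was picked for the highest r among all other genes tested, so these values are a description. The number of genes over 0.9 was 350 for Clu, 289 for Apoe, 260 for App, 117 for Gsk3b and 68 for Cdk5. It was 59 for Adam10, 48 for Mapt, 47 for Bace1, 36 for Ncstn and 29 for Psen2. For Apoe and Clu the highest value lay in Hydroxyurea 2, which is also true of Ncoa5 (5.12 there, and 4.74 to 4.88 in the other treated mice) and of Elob (6.14, and 5.81 to 5.98).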

How the data were processed

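The authors labelled 200 ng of hippocampal RNA per mouse with Cy3, per the labels' protocols, and read the scans with Feature Extraction 12.0.3.1, per the file headers. The deposited processed signal intensity of each spot had its background subtracted by that software, with no scaling between arrays. The authors' deposited value table holds a z score of log signal per array, recomputed here to within 0.005 from the processed signals, and served as an alternative. The headers name build mm9, and names came from a GRCm38.p6 gene table.

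Spots of a probe were averaged on log2, leaving out outlier spots, and the log2 75th percentile of the array was subtracted. Of 55681 probes 28331 named 1 gene. Tested probes were well above background on 4 or more of 8 arrays, with a value on 6 or more, and the brightest probe stood for a gene. limma 3.58.1 in R 4.3.3 gave two-sided p-values with Benjamini-Hochberg adjustment over all genes or probes. The number of arrays limits precision. No spot was saturated. Alternatives were quantile scaling, median centring, normexp (offset 50, on the median spot signal), other filters and probe rules, array weights, variance settings, age, the replicate block and left-out arrays. Same-numbered mice of both groups had deviations correlated at -0.21 to 0.20, so the numbers were not taken as pairs.

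The members and gene lists were chosen with earlier results of these data known. Named genes were the members, up to 3 per pathway list by smallest p, and 1 most similar gene per member. Lrp8, Gfap, Gjb6, Aldoc, Itgam and Ccr7 were named outside that rule, after their values were seen.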

Additional observations from a re-analysis of the deposited data

Results flagged for a closer look

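A mouse is listed here where its gap to the nearest other mouse of its group of 4 was over Dixon's critical share of the group's range, which chance gives in about 1 of 20 groups. Of 28 groups checked for the 14 probes of the members, 4 had such a mouse, each on a different probe. By probe, 4 of 14 thus had at least 1. Of all genes tested, 13.7% had at least 1, which is a share of genes and not of groups. Counted by gene, the members with at least 1 were App, Gsk3b and Apoe, each on its brightest probe. App in Control 1 was 6.288, against 6.485 to 6.521 in the other Control mice. Gsk3b in Control 1 was 4.386, against 3.961 to 4.033 in the other Control mice. Control 1 is the array with the noisiest replicate spots. Apoe in Hydroxyurea 2 was 7.378, against 6.961 to 7.031 in the other Hydroxyurea mice. The Gsk3b probe A_51_P514412 in Hydroxyurea 4 was -0.534, against -0.037 to -0.0040 in the other Hydroxyurea mice.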

How the results depend on the processing

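No gene passed between Hydroxyurea and Control mice in any of the 21 alternatives. The count of members at an unadjusted limma p under 0.05, 1 as reported, was 2 with quantile scaling, with trend and robust variance and with the replicate block, 3 in the deposited z scores (App, Apoe and Clu, without Cdk5), and 0 with normexp, in 19-week mice and with age as a covariate. It was 1 to 2 when single arrays were left out. With array weights, and without Control 1 and Hydroxyurea 2 together, the 1 member was Bace1, not Cdk5. The replicate numbers showed no pairing (2 of 4 treated mice correlated best with their own number), and the block left 0 genes called and added Apoe (unadjusted limma p = 0.0435) to Cdk5 (0.0103). Genes at an unadjusted p under 0.05 numbered 2483 with no filter and 3251 with array weights, and 1110 to 2522 without single arrays, against 1641. The age comparison gave 0 to 7 genes without single arrays, with 1 without Hydroxyurea 3 and 7 without Hydroxyurea 4. Leaving out a treated mouse leaves 1 treated mouse of its age, which is assumed to vary like the other groups. The count of member probes, 1, was 2 with quantile scaling, 0 with normexp, and 0 to 2 without single arrays. Signs near 0 turned. Mapt was -0.030 with quantile scaling, -0.081 with median centring, -0.045 as the mean of its probes, -0.056 in 19-week mice and with age as a covariate, -0.00099 with array weights, -0.026 without the 2 doubted arrays (Control 1 and Hydroxyurea 2), and -0.036 to 0.053 without single arrays. Psen2 was -0.064 with median centring, -0.014 with normexp, and -0.0028 to 0.041 without single arrays. Gsk3b was 0.037 with normexp, 0.052 with array weights, 0.022 without the 2 doubted arrays, 0.02 in z units, and -0.092 to 0.050 without single arrays. In z units App was 0.0525 and Ncstn -0.025, and without single arrays App was -0.070 to 0.0075 and Ncstn -0.081 to 0.29. The Mapt probe A_55_P1954486 was -0.026 with quantile scaling, -0.072 with median centring, -0.043 with normexp, and -0.0022 to 0.024 without single arrays. The Gsk3b probe A_51_P514412 was -0.056 to 0.27 without single arrays. Median centring moved every log2 fold change by -0.08. Ncstn gave no value where a probe had to be well above background on all 8 arrays. The causes were not tested.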
